A study of Mus musculus with 6 samples.

Results

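The genes described here are a list of collagens, mostly outside the cartilage types, together with enzymes and chaperones that modify, fold, process and cross-link collagen chains. The list holds 38 genes, of the 18193 named genes on the array, and 37 of them had a probe set that carries their symbol alone. A probe set is a group of short probes for 1 transcript, and the brightest by its mean over the 6 arrays was used for each gene. Loxl2, a lysyl oxidase, was not analysed here. The membrane collagens Col13a1 and Col23a1 were dimmer than a filter on the mean of all arrays, which left 35 genes to test. They are called the collagen genes below.

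RNA came from mouse embryonic fibroblasts (MEFs), cells grown out of E13.5 embryos of the C57BL/6 strain. Of the 6 cultures, 3 were Zmpste24+/+ (wild type) and 3 were Zmpste24-/-, which lack the zinc metalloprotease that trims prelamin A into mature lamin A, a protein of the nuclear lamina. All were collected at passage 3 from medium with fetal calf serum, and the labels mention 3 pairs and give the cultures of each genotype the numbers 1 to 3. The comparison asks what differs in early-passage cells without the protease. The labels do not say which part of the gene was deleted, how many embryos stand behind a culture or what the number marks, so p-values measure only the spread between these cultures.

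Collagens are triple helices of alpha chains. Chains are hydroxylated on proline and lysine and folded in the endoplasmic reticulum, secreted, trimmed by proteases and then cross-linked by lysyl oxidases outside the cell. Fibroblasts make the fibrillar types I, III and V, the beaded filaments of type VI and, with many other cells, the type IV network of basement membranes.

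The stretch before the transcription start is shown for 4 collagen genes whose levels differed most clearly between culture numbers: Crtap and Col3a1, which were higher in both cultures numbered 1, and Serpinh1 and Col7a1, which were lower there. They were chosen after their values were seen. Each sequence is the 250 bases before the start given by RefSeq in GRCm38.p6, 5′ to 3′ on the gene's strand. Capitals mark 3 short motifs, each searched on both strands. They are the core TATAAA of the TATA box, the box named for its letters CCAAT and the Sp1-type box GGGCGG. The windows are chr9:114390713-114390962 on the minus strand, chr1:45311288-45311537 on the plus strand, chr7:99353240-99353489 on the minus strand and chr9:108953336-108953585 on the plus strand.
Crtap: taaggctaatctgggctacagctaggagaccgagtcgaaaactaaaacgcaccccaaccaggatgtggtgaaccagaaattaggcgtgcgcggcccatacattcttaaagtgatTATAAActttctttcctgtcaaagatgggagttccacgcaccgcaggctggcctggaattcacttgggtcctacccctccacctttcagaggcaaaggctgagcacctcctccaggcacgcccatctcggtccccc
Col3a1: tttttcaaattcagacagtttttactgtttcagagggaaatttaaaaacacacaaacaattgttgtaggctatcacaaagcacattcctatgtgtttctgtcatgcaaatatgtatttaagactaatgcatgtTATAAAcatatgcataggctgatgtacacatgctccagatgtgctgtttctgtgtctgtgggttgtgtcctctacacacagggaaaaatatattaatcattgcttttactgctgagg
Serpinh1: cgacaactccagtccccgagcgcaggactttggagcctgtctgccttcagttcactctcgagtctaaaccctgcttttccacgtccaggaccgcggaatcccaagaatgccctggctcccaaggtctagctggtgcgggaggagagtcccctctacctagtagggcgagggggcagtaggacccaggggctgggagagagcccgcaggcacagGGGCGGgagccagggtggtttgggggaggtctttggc
Col7a1: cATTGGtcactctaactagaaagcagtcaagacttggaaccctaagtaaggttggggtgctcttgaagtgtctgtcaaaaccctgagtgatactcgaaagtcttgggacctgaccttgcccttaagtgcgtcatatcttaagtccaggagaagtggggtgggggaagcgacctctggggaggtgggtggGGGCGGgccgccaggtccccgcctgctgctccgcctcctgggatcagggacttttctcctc
Crtap and Col3a1 each held 1 TATAAA and neither of the other motifs. Serpinh1 held 1 GGGCGG, and Col7a1 held 1 GGGCGG and 1 CCAAT, which reads ATTGG on the printed strand. Over 28 listed genes with an entry, TATAAA was found in 4 (14.3%), against 12.4% of all 32851 promoters in the table. CCAAT was found in 11 (39.3%, against 33.8%) and GGGCGG in 20 (71.4%, against 32.7%). A listed gene counted if any of its entries held the motif. The comparison counted each entry, whether or not its gene was expressed here, so the shares are not in like units. These matches are descriptions of letters and were not tested.

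Zmpste24 itself checked the labels, with signals of 3849.9, 2249 and 2043 in the wild-type and 365, 182 and 226 in the Zmpste24-/- cultures. Here and below the 3 values of a genotype stand in the order of culture numbers 1, 2 and 3. It differed by -3.31 on the log2 scale (SE 0.34). The adjusted p from limma was 4.02e-05 with the culture number as a replicate block and 0.987 without it. Across all probe sets other than controls, the dim ones included, the cultures numbered 1 stood apart. Their arrays correlated with each other at r = 0.984 and with the other 4 at 0.953 to 0.959, while those 4 correlated at 0.980 to 0.984. Xist, the RNA of the inactive X chromosome, read 69.3 and 43.7 in wild-type cultures 2 and 3 and 4766 to 6669 in the other 4, and the Y-linked Eif2s3y and Kdm5d ran opposite. Sex and genotype thus cannot be told apart in numbers 2 and 3, while both cultures numbered 1 read as female. All 10 fibroblast markers listed were brighter than the filter.

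Between the genotypes no collagen gene passed the test. The log2 difference was -0.063 for Col1a1 and -0.043 for Col1a2, the chains of type I collagen, -0.0053 for Col3a1, the chain of type III collagen, and 0.019 for Lox, the founding lysyl oxidase. limma called 0 of 35 collagen genes, against 0.0% of 27022 probe sets, and 0 had an unadjusted p under 0.05, against 1.29%. That fit, without the block, did not call Zmpste24 either, so its 0 does not show that the collagen genes were unchanged. With the replicate block limma called 0 of 35, against 0.0185%, and 5 had an unadjusted p under 0.05 (14.3%), against 8.99%. Differences here are Zmpste24-/- minus wild type on the scale log2(signal + 16), which understates changes of dim genes. In whole cultures, fewer cells of a type and less RNA per cell cannot be told apart.

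The direction was mixed: 18 collagen genes were higher and 17 lower in Zmpste24-/-, with a median of 0.01, against -0.0048 over all tested probe sets. The median size was 0.06, against 0.12 over all tested probe sets. Within numbers 1, 2 and 3 the medians were 0.06, -0.13 and 0.05, against 0.0075, -0.029 and 0.015. The sign was the same in all 3 numbers for 3 genes that were higher and 6 that were lower. With the replicate block, the 95% interval lay within ±0.5 for 27 of the 35.

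**Figure D1:**
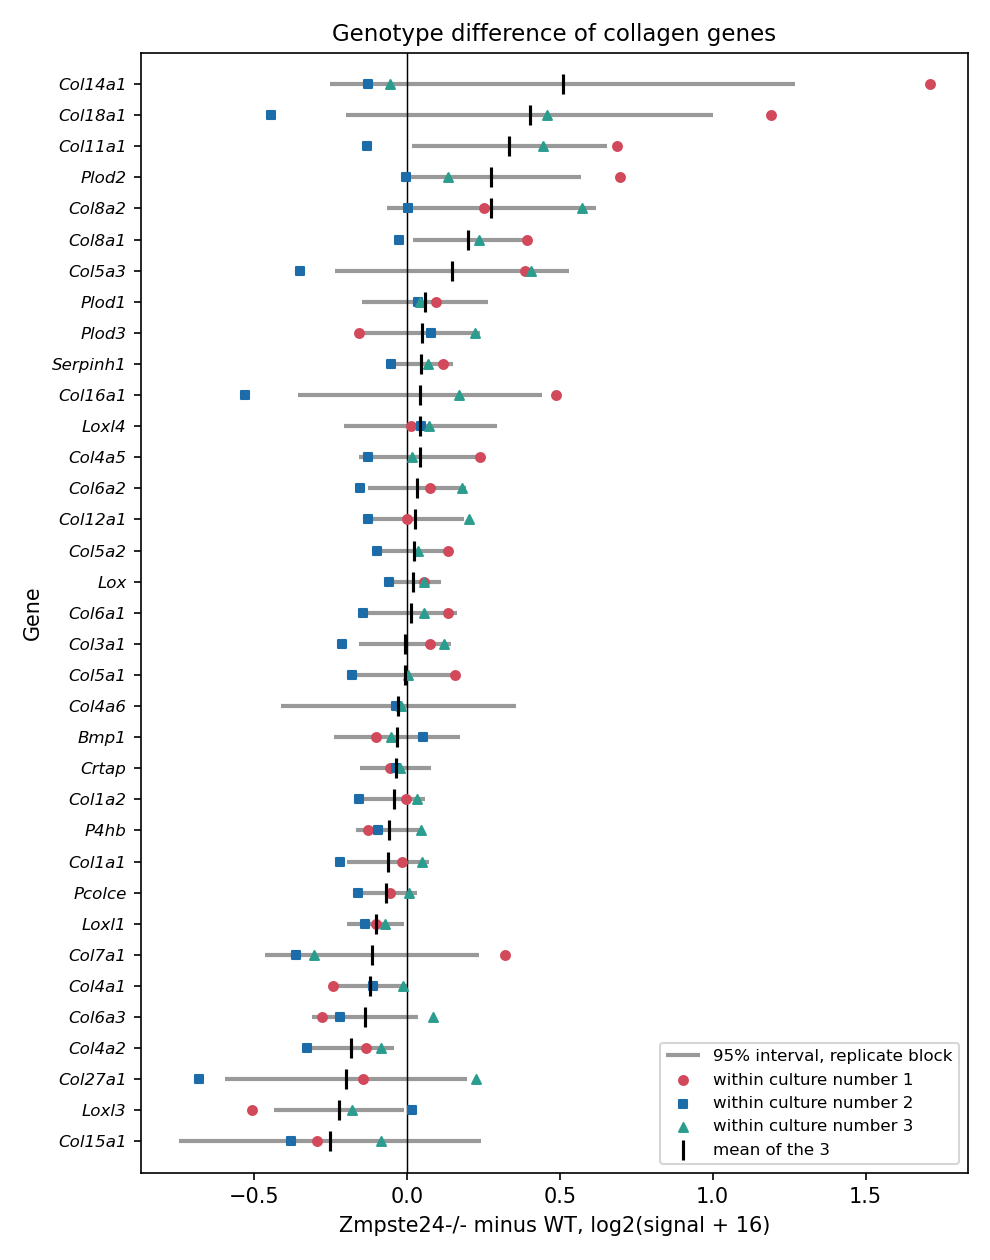
The horizontal axis gives the Zmpste24-/- minus wild-type difference of log2(signal + 16) for 35 collagen genes, with coloured points for each culture number, a black tick for their mean and a grey bar for limma's 95% interval with the replicate block. Most ticks lie near 0, and the points of Col14a1 and Col18a1 within number 1 lie far to the right of their other points.

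Among the fibrillar collagens, whose chains form the tensile fibres, the smallest p values between genotypes without the block belonged to Col11a1, Col27a1 and Col1a2. Col11a1, a minor chain that helps set fibril diameter, had signals of 2909, 1873 and 1650.4 in the wild-type and 4695, 1711 and 2251 in the Zmpste24-/- cultures. The highest value came from Zmpste24-/- culture 1, and the groups overlapped. Its difference was 0.33 (95% interval 0.016 to 0.65 with the replicate block, limma adjusted p = 0.547). Col27a1 had signals of 453, 436 and 301 in the wild-type and 408, 266 and 355 in the Zmpste24-/- cultures, a difference of -0.20 with an interval of -0.59 to 0.20. Col1a2 differed by -0.043, with an interval of -0.15 to 0.061. The interval was -0.20 to 0.071 for Col1a1, -0.16 to 0.15 for Col3a1 and -0.16 to 0.15 for Col5a1.

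The basement membrane chains Col4a1 and Col4a2 assemble into one heterotrimer, and RefSeq places their starts 21 bases apart on opposite strands. Col4a1 had signals of 9291, 11197 and 11240.2 in the wild-type and 7864, 10357 and 11134 in the Zmpste24-/- cultures. Col4a2 had signals of 6098, 7989 and 7501 in the wild-type and 5561, 6368 and 7065 in the Zmpste24-/- cultures. Within each culture number both were lower in Zmpste24-/-, though the groups overlapped. The difference of Col4a2 was -0.18 (95% interval -0.32 to -0.042 with the block, unadjusted p = 0.0173, limma adjusted p = 0.489), the smallest p of the 35 with the block. Col4a1 differed by -0.12 (interval -0.25 to 0.002). The other chain pair, Col4a5 and Col4a6, lies on the X chromosome and differed by 0.043 and -0.028. Col8a1, a chain of the short-chain network collagen VIII, differed by 0.20 (interval 0.021 to 0.38, limma adjusted p = 0.529 with the block). Col15a1, a basement membrane zone collagen, had dim signals of 57.1, 72.1 and 83.6 in the wild-type and 43.7, 51.7 and 77.8 in the Zmpste24-/- cultures and differed by -0.25 (interval -0.75 to 0.24).

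Among the collagen chains, the genotype difference of 2 stood out most in number 1. Col14a1, a fibril-associated collagen, had signals of 152, 152 and 172 in the wild-type and 534, 138 and 165 in the Zmpste24-/- cultures. Col18a1, the basement membrane collagen that yields endostatin, had signals of 332, 440.1 and 301 in the wild-type and 779, 319 and 419.7 in the Zmpste24-/- cultures. In both genes Zmpste24-/- culture 1 lay above the other 5. The difference within number 1 exceeded that within the other numbers by 1.80 for Col14a1 (SE 0.32, limma adjusted p = 0.0676) and by 1.19 for Col18a1 (SE 0.35, limma adjusted p = 0.429). Neither passed, nor did the enzyme Plod2 at 0.63 (SE 0.17, limma adjusted p = 0.360). A second Col18a1 probe set differed between genotypes by -0.084, against 0.40 for the brightest. The test within numbers, added after the data were seen, called 0 of 35 collagen genes in number 1, 2 or 3, against 0.196%, 0.0037% and 0.0037% of all tested probe sets. At an unadjusted p under 0.05 were 7, 11 and 1 of the 35, against 5.78%, 6.47% and 3.26%. The shares in numbers 1 and 2 were thus above those over all probe sets. In number 2 they included 7 of the 8 fibrillar collagens, none of which passed, and in number 3 they included 0 of the 8. The share among probe sets of like brightness was not counted. In both numbers 2 and 3 sex and genotype cannot be told apart.

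Type VI collagen builds beaded filaments near cells from 3 chains. Col6a1 differed between genotypes by 0.015 (95% interval with the block -0.13 to 0.16), Col6a2 by 0.034 (-0.13 to 0.19) and Col6a3 by -0.14 (-0.31 to 0.035). The fibril-associated collagens Col12a1 and Col16a1 differed by 0.026 (-0.13 to 0.19) and 0.044 (-0.35 to 0.44). The untested membrane collagens were dim throughout. Col13a1 read 35.8, 5.34 and 38.1 in wild type and 35.9, 39.9 and 7.92 in Zmpste24-/-, and Col23a1 read 70.8, 35.2 and 38.8 in wild type and 46.8, 4.31 and 7.88 in Zmpste24-/-.

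Loxl1, a lysyl oxidase known for its part in elastic fibres, was the only one of the 35 whose groups did not overlap (2.86%), against 3.03% of all tested probe sets that were lower and apart and 2.22% that were higher and apart. Its signals were 13450.3, 14084 and 12986 in the wild-type and 12546, 12815 and 12362 in the Zmpste24-/- cultures. Every Zmpste24-/- value was below every wild-type value, by little: the difference was -0.10 (95% interval -0.20 to -0.009 with the block, limma adjusted p = 0.537). Loxl3, a related oxidase, had signals of 7415, 5132 and 5242 in the wild-type and 5212, 5197 and 4632 in the Zmpste24-/- cultures. Wild-type culture 1 stood above the other 5, and the difference was -0.22 (interval -0.44 to -0.009). Lox had signals of 17445, 16918 and 16915 in the wild-type and 18138, 16257 and 17601 in the Zmpste24-/- cultures and differed by 0.019 (interval -0.076 to 0.11).

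Inside the endoplasmic reticulum, Plod2 hydroxylates telopeptide lysines for cross-links, P4hb is the beta subunit of prolyl 4-hydroxylase and Plod1 hydroxylates lysines of the helix. Plod2 had signals of 2148, 1729 and 1684 in the wild-type and 3489, 1727 and 1851 in the Zmpste24-/- cultures, and Zmpste24-/- culture 1 was the highest. It differed between genotypes by 0.28 (95% interval with the block -0.017 to 0.57), P4hb by -0.058 (-0.17 to 0.05) and Plod1 by 0.059 (-0.15 to 0.27). Of the secreted processing factors, Pcolce, which enhances removal of the C-propeptide, differed by -0.069 (-0.17 to 0.034). Bmp1, the protease that removes it, differed by -0.033 (-0.24 to 0.17). None of these passed the test.

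The collagen genes differed between the culture numbers. On average over the cultures numbered 1, Col3a1, Col11a1, the type VIII chains, Col4a5, Col12a1, the lysyl hydroxylases Plod1, Plod2 and Plod3, the prolyl 3-hydroxylation cofactor Crtap the processing factors Bmp1 and Pcolce and the oxidase Loxl3 were higher than in numbers 2 and 3. The type V chains, Col4a1, Col4a2, Col7a1, Col6a3, Col1a1 and the collagen chaperone Serpinh1 were lower. limma with genotype and number in the model called 22 of 35 collagen genes for number 1 against the mean of numbers 2 and 3 (62.9%), against 47.4% of all tested probe sets. Of these, 13 were higher (37.1%, against 25.4%) and 9 lower (25.7%, against 22.0%).

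The shares were near the background among bright probe sets: at a mean signal over 1000, 17 of 23 collagen genes were called (73.9%), against 70.0% of 6964 probe sets. An F-test over the 3 numbers called 18 of 35 (51.4%), against 41.6%, and 60.9% of those over a signal of 1000, against 65.1%. All 22 called genes had the same sign in both genotypes, which a call on the average of both favours. Of all 35 tested, 30 had the same sign. Cultures numbered 1 lay wholly above the other 4 for 13 collagen genes (37.1%, against 31.2%) and wholly below for 11 (31.4%, against 27.2%). The median difference was 0.17, against 0.04 over all tested probe sets, and the median size 0.37, against 0.39. Number took a median of 79.2% of a collagen gene's sum of squares and genotype 3.43%, against 75.6% and 5.05% over all tested probe sets. In 33 of 35 genes number took more than genotype did. Number has more levels than genotype, which favours this, and the share over all tested probe sets was not counted.

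The split depended on the scaling. After quantile normalization 17 were called higher (against 23% of all tested probe sets) and 7 lower (against 24.1%), and after median centring 10 (against 20.2%) and 10 (against 25.4%), so that the share called higher was 70.8% and 50%, against 59.1% as deposited. The median of all tested probe sets moved with it, from 0.04 to -0.027 and -0.07. All 22 genes called as deposited kept their sign under both, and 12 of the 22 kept their call in the 15 alternatives run gene by gene. Averaging a gene's probe sets, not run gene by gene, gave 19 calls and a median of 0.096 for the collagen genes, against 0.17 as deposited. Leaving out Zmpste24-/- culture 1 took the median of the collagen genes from 0.17 to 0.00021.

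**Figure D2:**
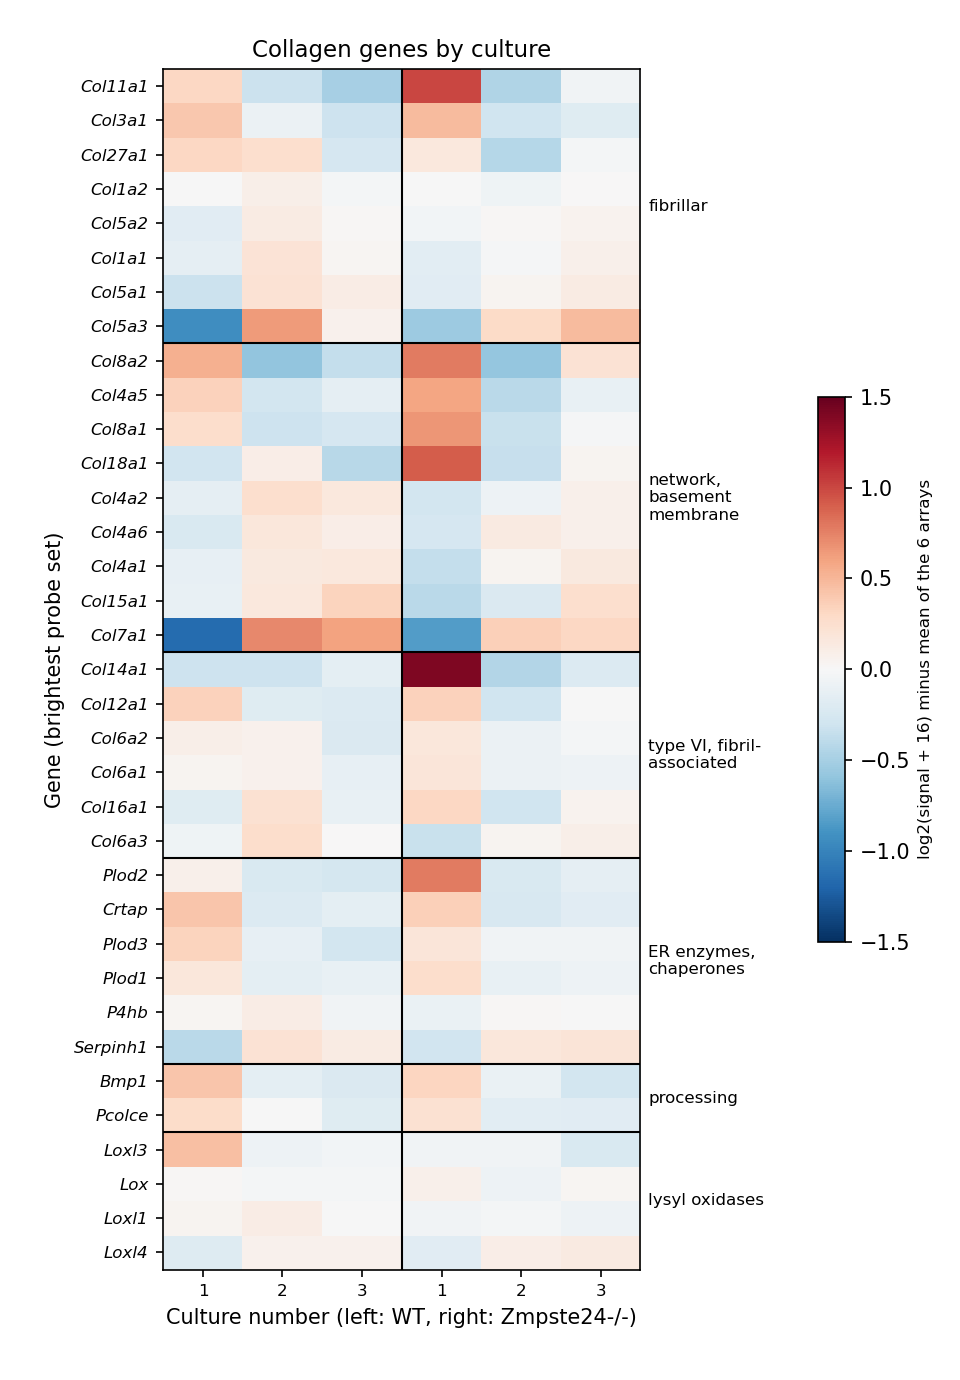
Each row is a collagen gene and each column a culture, numbered 1 to 3 from left to right within wild type (left of the line) and Zmpste24-/- (right), and colour gives log2(signal + 16) minus the gene's mean over the 6 arrays. The first column of each genotype shows most of the strong colours, red for Col3a1, Col11a1, Col8a2 and Crtap and blue for Col5a3, Col7a1 and Serpinh1, and the strongest red is Col14a1 in Zmpste24-/- culture 1.

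Fibrillar collagens moved in both directions, with 2 of 8 higher and 4 of 8 lower in number 1. Of all tested probe sets 25.4% were called higher and 22.0% lower. At a mean signal over 1000, a call in either direction was made for 70.0%. Col3a1, which forms fibres with type I collagen in elastic tissues, had signals of 16857, 12025 and 10338 in the wild-type and 17750.4, 10388 and 11239 in the Zmpste24-/- cultures. Both cultures numbered 1 stood above all others, by 1.57-fold on the linear scale, and the log2 difference was 0.66 (SE 0.069, limma adjusted p = 1.40e-04). Col11a1 was higher by 0.99 (SE 0.15, limma adjusted p = 8.30e-04), 0.72 in wild type and 1.25 in Zmpste24-/-. Of the type I chains, which assemble in one heterotrimer, Col1a1 was called and Col1a2 was not, and no test compared the 2. Col1a1 had signals of 9864, 12457 and 11076 in the wild-type and 9746, 10697 and 11460.2 in the Zmpste24-/- cultures, lower in number 1 by a log2 difference of -0.22 (SE 0.062, limma adjusted p = 0.0196). Col1a2 had signals of 20437, 21793 and 20061 in the wild-type and 20380.4, 19556 and 20515 in the Zmpste24-/- cultures, with a difference of -0.004 (95% interval -0.11 to 0.11) that turned to 0.16 after quantile normalization (limma adjusted p = 0.0152) and was -0.11 after median centring, where it did not pass. The Col1a1 call was lost with quantile normalization, with no filter, without the intensity trend, without wild-type culture 1 and without Zmpste24-/- culture 3. A second Col1a1 probe set gave -0.29 (limma adjusted p = 0.105). Further Col1a2 probe sets gave 0.096 (limma adjusted p = 0.289) and, for a dim one, -0.12 (0.657). None of these passed.

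Type V chains, which start type I fibrils, were all lower in number 1 by their brightest probe sets. Col5a3 had signals of 179.7, 565 and 375 in the wild-type and 239.9, 440.4 and 501 in the Zmpste24-/- cultures. Both cultures numbered 1 lay below the rest, 2.24-fold on the linear scale, with a log2 difference of -1.10 (SE 0.18, limma adjusted p = 0.00121). Col5a1 had signals of 5989, 8754 and 8124 in the wild-type and 6676, 7721 and 8149 in the Zmpste24-/- cultures and a difference of -0.37 (SE 0.072, limma adjusted p = 0.00328). Further Col5a1 probe sets gave -0.088 (limma adjusted p = 0.389) and -0.19 (0.173), and neither passed. Col5a2 was lower by a log2 difference of -0.16 (SE 0.055, limma adjusted p = 0.045). A second Col5a2 probe set did not share that sign, at 0.24 (limma adjusted p = 0.0522). The Col5a2 call was lost without any 1 wild-type culture, without Zmpste24-/- culture 3, after quantile normalization, with no filter and without the intensity trend, and the last also ended that of Col5a1. Col27a1 was 0.35 (interval -0.069 to 0.77), which did not pass, though it did without wild-type culture 2.

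Network and basement membrane collagens were called in both directions too, 3 of 9 higher (against 25.4% of all tested probe sets) and 3 of 9 lower (against 22.0%). Col7a1, which forms the anchoring fibrils under epithelia, had signals of 186, 726 and 672 in the wild-type and 237, 562 and 541 in the Zmpste24-/- cultures. It was 2.95-fold lower in number 1 on the linear scale and gave the largest log2 difference of the 35, -1.49 (SE 0.16, limma adjusted p = 1.52e-04). Col8a1 had signals of 7861, 5259.8 and 5469 in the wild-type and 10324, 5167 and 6447 in the Zmpste24-/- cultures. Both cultures numbered 1 were above the rest, at 0.69 (SE 0.083, limma adjusted p = 2.63e-04), and its partner chain Col8a2 was higher by 0.99 (SE 0.16, limma adjusted p = 0.00117). Col8a1's further probe sets gave 1.08 and 1.21.

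The type IV chains went in both directions. Col4a1 was lower in number 1 by a log2 difference of -0.36 (SE 0.057, limma adjusted p = 0.00117) and Col4a2 by -0.31 (SE 0.064, limma adjusted p = 0.00494). Both calls were lost without the intensity trend. Col4a5, a chain of the second type IV network, had signals of 2589.9, 1669 and 1854 in the wild-type and 3059.8, 1528 and 1876 in the Zmpste24-/- cultures. It was higher in number 1 by 0.70 (SE 0.092, limma adjusted p = 4.38e-04). Col4a6, its head-to-head neighbour with a start 1343 bases away, had signals of 88.3, 121 and 114 in the wild-type and 86.2, 118 and 112 in the Zmpste24-/- cultures. All its values in number 1 lay below the rest, but its difference of -0.36 (interval -0.76 to 0.051) did not pass, though it did without the intensity trend. Col15a1 (-0.39) and Col18a1 (0.46) did not pass, though Col18a1 passed without wild-type culture 1 and without wild-type culture 2. Without Zmpste24-/- culture 1 the Col18a1 difference was -0.13.

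**Figure D3:**
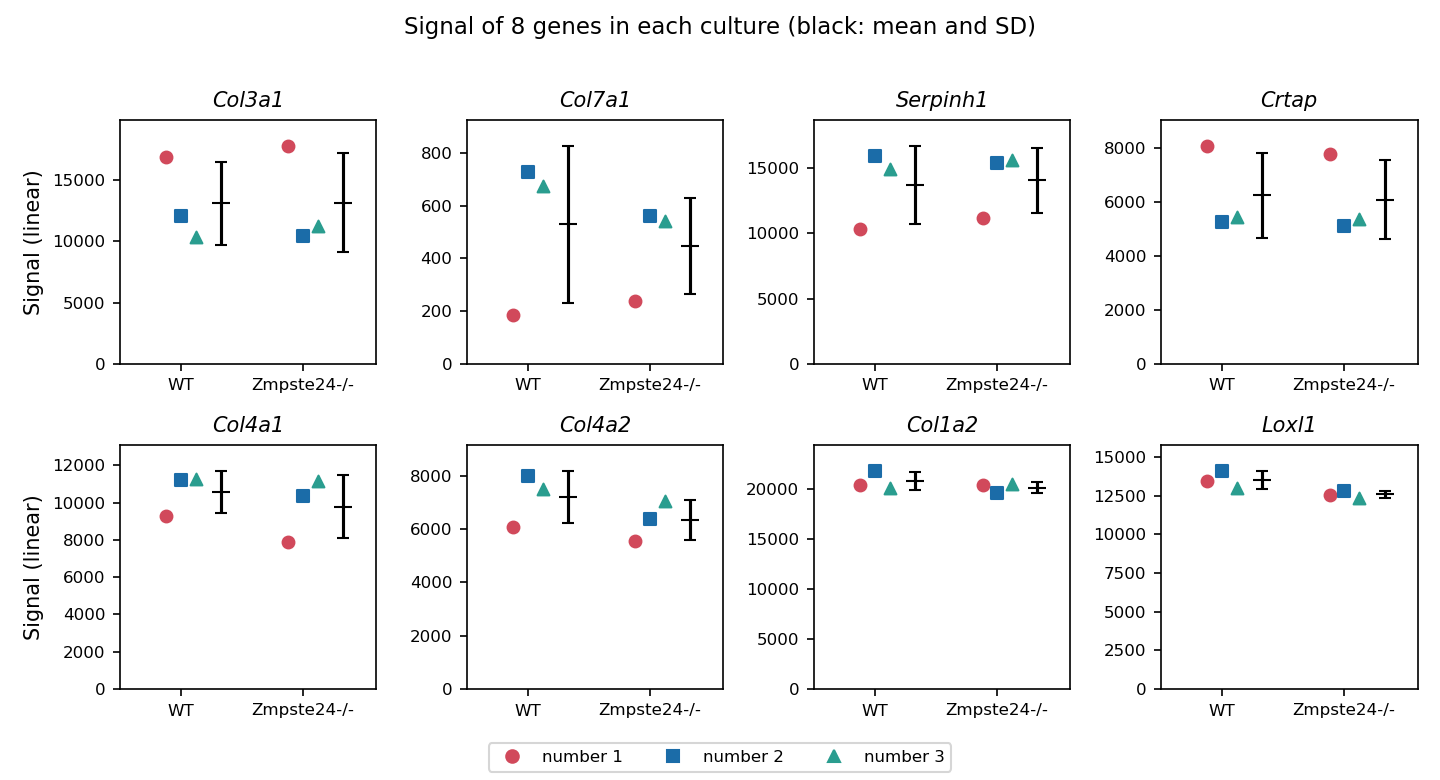
Signal on a linear axis from 0 is plotted for 8 collagen genes by genotype, with 1 point per culture, coloured by culture number, and the mean and SD of each genotype in black. The red points of number 1 lie above the rest for Col3a1 and Crtap and below the rest for Col7a1, Serpinh1, Col4a1 and Col4a2, while all points of Col1a2 lie close together and those of Loxl1 separate by genotype.

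In the type VI and fibril-associated group, 1 of 6 tested genes was higher (against 25.4% of all tested probe sets) and 1 lower (against 22.0%). Col12a1 had signals of 7555, 5236 and 5123 in the wild-type and 7552, 4796 and 5906 in the Zmpste24-/- cultures. It was higher in number 1 by 0.52 (SE 0.074, limma adjusted p = 6.34e-04), but a second, dimmer probe set gave -0.18 (limma adjusted p = 0.145). The 3 type VI chains did not move together. Col6a3 had signals of 5861, 7339.9 and 6106 in the wild-type and 4832, 6299 and 6474 in the Zmpste24-/- cultures and was lower by a log2 difference of -0.30 (SE 0.08, limma adjusted p = 0.0156). Col6a1 had signals of 6172, 6238 and 5481 in the wild-type and 6769.6, 5641 and 5699 in the Zmpste24-/- cultures and a difference of 0.17, and Col6a2 had signals of 6664, 6559.5 and 5399 in the wild-type and 7020.0, 5902 and 6114 in the Zmpste24-/- cultures and a difference of 0.19. Neither passed, though both did after quantile normalization and without wild-type culture 2, and Col6a2 without Zmpste24-/- culture 3. A second, dimmer Col6a2 probe set gave 0.19 and passed (limma adjusted p = 0.0456). The Col6a3 call was lost after quantile normalization, without the intensity trend and without Zmpste24-/- culture 1. Col14a1 (0.82, interval 0.017 to 1.63) did not pass, though it did without wild-type culture 1 and at a threshold of 0.1. Without Zmpste24-/- culture 1 it was -0.079. A second, dimmer Col14a1 probe set gave 1.43 and passed (limma adjusted p = 0.0195). Col16a1 had signals of 844, 1128 and 883 in the wild-type and 1191, 777 and 996 in the Zmpste24-/- cultures, with wide overlap and a difference of 0.10 (interval -0.33 to 0.52).

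Of the enzymes and chaperones of the endoplasmic reticulum, 4 of 6 were higher and 1 lower in number 1 (83.3% together). Of all tested probe sets 47.4% were called, and 70.0% of those with a mean signal over 1000. Crtap, part of the complex that hydroxylates proline at carbon 3 of its ring, had signals of 8073, 5247 and 5449 in the wild-type and 7771, 5125 and 5365 in the Zmpste24-/- cultures. Values within a number were close, and number 1 was 1.5-fold higher, a log2 difference of 0.58 (SE 0.053, limma adjusted p = 6.84e-05). Serpinh1, the collagen-specific chaperone HSP47, had signals of 10308, 15889 and 14891 in the wild-type and 11202, 15337 and 15606 in the Zmpste24-/- cultures. It ran the other way, 1.43-fold lower in number 1, a log2 difference of -0.52 (SE 0.049, limma adjusted p = 7.90e-05), and a second probe set gave -0.27.

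The lysyl hydroxylases were higher in number 1, Plod2 by 0.64 (limma adjusted p = 0.00487), Plod3 by 0.39 (0.0071) and Plod1 by 0.33 (0.0215). Plod2's difference was 0.33 in wild type and 0.96 in Zmpste24-/-, and its call was lost without Zmpste24-/- culture 1 and without the intensity trend. The Plod3 call was lost without wild-type culture 1, after median centring and without the trend. The Plod1 call was lost without wild-type culture 1 or 3, without Zmpste24-/- culture 1 or 3, under both other scalings and without the trend. P4hb had signals of 13781, 14583 and 13019.9 in the wild-type and 12624, 13651 and 13444 in the Zmpste24-/- cultures, with a difference of -0.051 (interval -0.17 to 0.065) that turned to 0.068 after quantile normalization and was -0.16 after median centring, and it passed under none of these.

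Outside the cell, both processing factors were higher in number 1, against 25.4% of all tested probe sets. Pcolce had signals of 18408, 15141 and 13410.0 in the wild-type and 17716, 13552 and 13472 in the Zmpste24-/- cultures and a difference of 0.38 (SE 0.048, limma adjusted p = 3.38e-04). Bmp1 had signals of 1187, 796 and 758 in the wild-type and 1106, 827 and 731 in the Zmpste24-/- cultures and a difference of 0.55 (SE 0.095, limma adjusted p = 0.00181). Of the lysyl oxidases, Loxl3 alone of the 4 tested was called (25.0%, against 47.4% of all tested probe sets), at 0.30 (SE 0.10, limma adjusted p = 0.0351). Its groups overlapped, with 0.51 in wild type and 0.087 in Zmpste24-/-. That call was lost without each wild-type culture in turn, without Zmpste24-/- culture 3, after median centring, with no filter and without the trend. Lox (0.072), Loxl1 (-0.0062) and Loxl4 (-0.27) did not pass as deposited. After quantile normalization all 3 did, Loxl1 with its sign turned to 0.12 (limma adjusted p = 0.0370), and Loxl4 passed after median centring too. There Lox was -0.035 and Loxl1 -0.11, and neither passed.

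**Figure D4:**
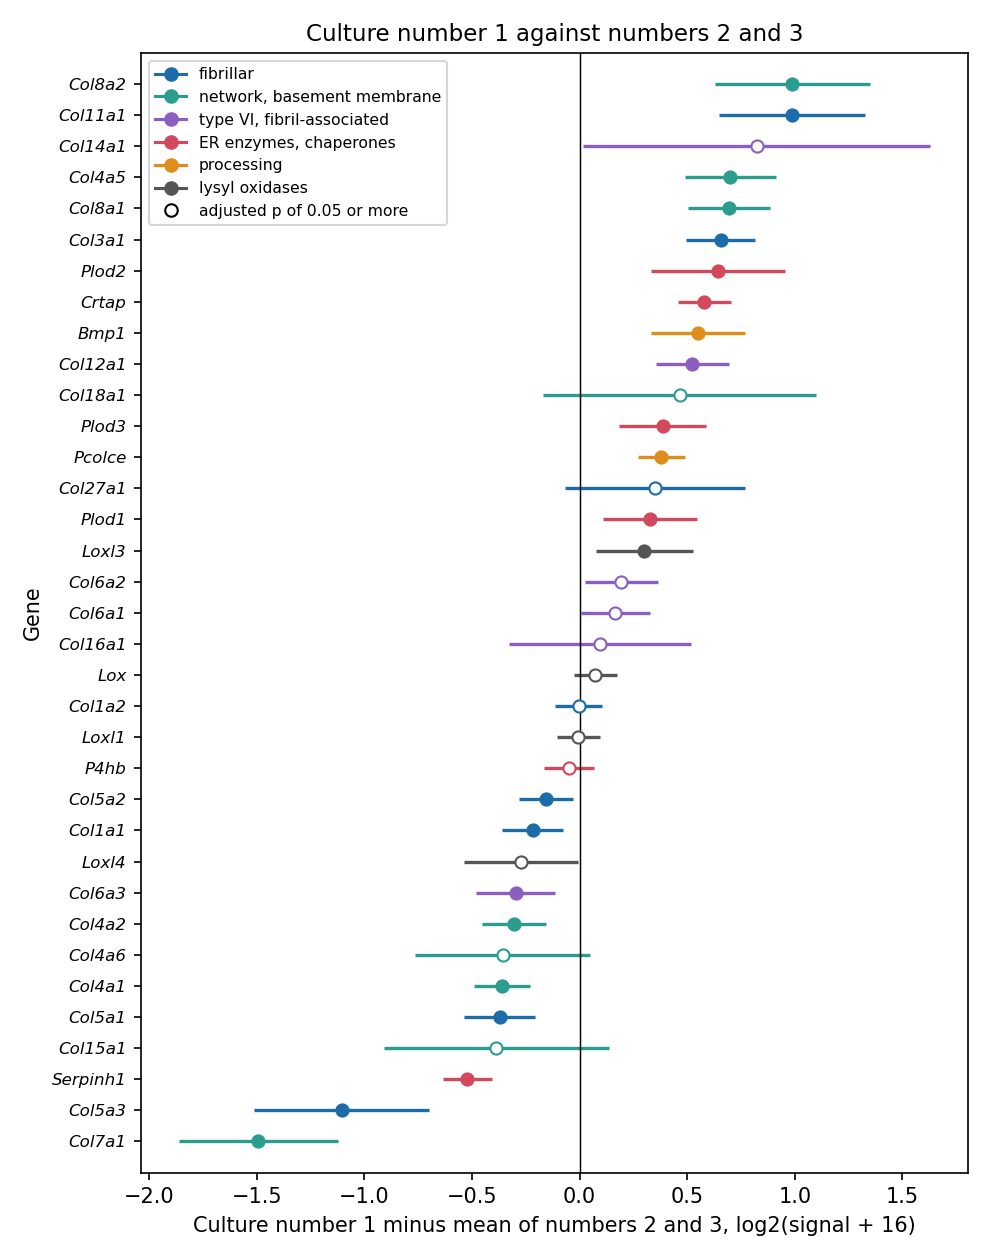
The horizontal axis gives number 1 minus the mean of numbers 2 and 3 on the log2(signal + 16) scale for 35 collagen genes, with limma's 95% interval as a bar, filled points for an adjusted p under 0.05 and colours by role. Col8a2 and Col11a1 lie farthest right at 0.99 and Col7a1 farthest left at -1.49, and fibrillar and network genes lie on both sides of 0.

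Numbers 2 and 3 were also set against the other cultures, on the same 6 arrays as the comparison above. limma called 10 of 35 collagen genes for number 2 (28.6%, against 24.6%), 3 higher (against 11.3%) and 7 lower (against 13.3%). It called 7 for number 3 (20.0%, against 18.1%), 3 higher (against 9.17%) and 4 lower (against 8.95%). Col4a5 was -0.52 in number 2 (limma adjusted p = 0.00626) and -0.18 in number 3, which did not pass. Col8a2 was -0.88 in number 2 (limma adjusted p = 0.00624) and -0.11 in number 3. Bmp1 was -0.37 in number 3 (limma adjusted p = 0.0329). With number 1 left out, an alternative added after the data were seen, number 2 against 3 gave 0 of 35 by limma, against 0.0592%, and 2 at an unadjusted p under 0.05, against 7.47%. The count for number 2 was 4 without Zmpste24-/- culture 2. The count for number 3 was 0 without wild-type culture 3, with 9 at an unadjusted p under 0.05 (25.7%, against 19.1%), and 2 without Zmpste24-/- culture 3.

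Of the other genes of the pathway, the further folding and modification genes followed number 1 most. limma called 11 of 13 tested (15 listed) as higher there (84.6%, against 25.4% of all tested probe sets) and 0 as lower (against 22.0%). Their median was 0.66, against 0.04. P4ha3, a catalytic subunit of prolyl 4-hydroxylase, had signals of 1329, 545 and 559 in the wild-type and 1680.1, 593 and 611 in the Zmpste24-/- cultures and was higher by 1.35 (limma adjusted p = 2.68e-05). The prolyl isomerases Fkbp14 and Fkbp7 were higher by 1.33 (1.93e-05) and 1.22 (1.53e-05). Ppib, the cyclophilin partner of Crtap, was -0.042, and the disulfide isomerase Pdia3 was -0.058, and neither passed. Between genotypes 0 of the 13 were called, with 0 at an unadjusted p under 0.05 (against 1.29%) and 1 with the block (against 8.99%).

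Of 9 tested secretion and processing genes (14 listed), 3 were called higher and 2 lower in number 1 (55.6% together, against 47.4% of all tested probe sets). Among them was Adamts3, a procollagen N-proteinase, at 1.17 (limma adjusted p = 0.00245). Pcolce2, the relative of Pcolce, ran opposite to it, at -1.26 (2.99e-05), as did the Bmp1 relative Tll1, at -1.17 (5.20e-05). Of 7 tested receptors and uptake genes (9 listed), 3 were called higher (42.9%, against 25.4%) and 0 lower (against 22.0%). They were the collagen-binding integrin chain Itga1 at 1.63 (3.16e-05), the endocytic collagen receptor Mrc2 at 1.07 (5.05e-05) and the kinase receptor Ddr2 at 0.93 (1.71e-04). Between genotypes limma called 0 in either list, with 0 at an unadjusted p under 0.05 without the block (against 1.29%), and 0 and 1 with it (against 8.99%).

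Among 7 tested collagens outside the list (19 listed), 1 was called higher and 1 lower in number 1 (28.6% together, against 47.4% of all tested probe sets). Col2a1, the main cartilage collagen, had signals of 159.7, 517 and 369 in the wild-type and 279.7, 888 and 963 in the Zmpste24-/- cultures and was lower in number 1 by a log2 difference of -1.52 (limma adjusted p = 1.06e-04), while Col24a1 was higher by 0.66 (0.038). All 7 had positive genotype differences, with a median of 0.27. limma called 0 of them, with 1 at an unadjusted p under 0.05 (against 1.29%) and 2 with the block (against 8.99%). Col10a1, the collagen of hypertrophic cartilage, had signals of 24.2, 26.8 and 57.3 in the wild-type and 74.4, 111 and 145 in the Zmpste24-/- cultures. Its groups did not overlap, nor did those of Col19a1, and the differences were 1.29 (limma adjusted p = 0.247 with the block) and 0.47 (0.609). Over all tested probe sets 2.22% were higher and apart in Zmpste24-/-. Markers of other lineages also differed between genotypes, and their part in these values was not tested. Of 7 neural and glial markers 6 were higher in Zmpste24-/-, with a median of 0.49, and 2 did not overlap, with sums of 1000 to 2040 in wild type and 1814 to 2413 in Zmpste24-/-. Sums of the osteoblast markers were 178 to 242 and 227 to 311, and 1 of the 2 tested, the osteoblast transcription factor Sp7, was higher without overlap, at 70.9, 49.6 and 51.9 against 90.1, 121 and 116, while Ibsp and Dmp1 were dimmer than the filter. The chondrocyte markers, which share Col2a1, Col9a1 and Col10a1 with these collagens, summed to 978 to 1692 and 1337 to 1726, with 5 of 6 tested higher and 1 not overlapping, and Matn1 and Cnmd dimmer than the filter. limma called 0 in each of these 3 lists, with 1 in each at an unadjusted p under 0.05 (against 1.29%).

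Markers of other cells and of division moved with number 1, and their part in the differences above was not tested. Of all tested probe sets 25.4% were called higher and 22.0% lower in number 1. Wholly above the other 4 cultures lay 31.2%, and wholly below 27.2%. All 10 macrophage markers were higher in number 1, with summed signals of 7347 and 13608, against 1375 to 2142 in the other 4 cultures. All 9 mitosis genes measured were lower, with sums of 7044 and 7060, against 28987 to 32745. The sum of the 10 fibroblast markers was 66327 to 69689 in number 1 and 53641 to 59025 in the others, and 5 of the 10 lay wholly higher and 1 wholly lower. Dcn, at 4457 and 6233 against 477 to 862, and Lum, at 6548 and 7892 against 292 to 681, rose most. Vim, the brightest, was the lower one, at 23506 and 21940.5 against 24757 to 27450. The sum of the 8 epithelial markers was 635 to 732, against 3056 to 3529, with Cdh1, Krt14 and Cldn4 dimmer than the filter, and limma called 2 of the 5 tested, Krt18 and Krt19, lower, while Epcam, Krt5 and Krt8 overlapped. The 8 skeletal muscle markers summed to 378 to 432, against 649 to 727, with Myod1, Myog, Myf5 and Myh3 dimmer than the filter and 3 of the 4 tested called lower. Endothelial sums overlapped, at 538 to 867 and 621 to 711, Pecam1, Cdh5 and Tie1 were dimmer than the filter, and 1 of the 4 tested was called lower.

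Further probe sets measured 23 of the 35 genes a second time or more. Of 27 such tested probe sets, 19 had the number 1 sign of the gene's brightest and 14 its genotype sign. A second Col3a1 probe set read 4394, 1431 and 1205 in wild type and 5738, 1112 and 1651 in Zmpste24-/-. It put Col3a1 higher in number 1 by 1.90 (limma adjusted p = 4.02e-05), against 0.66 for the brighter one, so the size of the Col3a1 difference depended on the probe set.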

How the data were processed

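Total RNA of 6 cultures was measured on Affymetrix Mouse Genome 430 2.0 arrays, 1 per culture. The authors deposited a linear intensity for each probe set, called signal here. The submitters' processing notes name GCOS, the array maker's software, with no version or settings. Each array has a mean of 500 after trimming 2% at each end, so a change in total RNA per cell cannot be seen. The number of arrays limits the precision, and the labels name no genome build.

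Of 45101 probe sets, 64 controls were left out. The platform annotation gives 34945 a single symbol, 932 several and 9160 none, 34741 matched RefSeq GRCm38.p6 by gene identifier, and 0 symbols changed. Values were analysed as log2(signal + 16), without the dimmest 40% by mean over all arrays (signal under 39.4), which left 27022.

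The tests were fitted on all of them with limma 3.58.1 in R 4.3.3 (eBayes with intensity trend, Benjamini-Hochberg adjusted p under 0.05), between genotypes without a block and with the culture number as a replicate block, and between numbers with genotype in the model. They were tested on simulated data. Same-numbered cultures deviated together from their group means (r = 0.83, 0.59 and 0.57), over the limit of 0.1 for pairing; numbers 2 and 3 also correlated across numbers (0.49 and 0.55). Figures were drawn with matplotlib 3.10.9.

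The genes, lists and tests were chosen with earlier results of these data known. Every-sample values were planned for Col1a1, Col1a2, Col3a1, Col4a1, Col4a2, Col5a1, Col6a1, Lox, P4hb and Serpinh1, and in each role for up to 3 genes of smallest p between genotypes and up to 3 between numbers. Up to 3 of each other pathway list were named likewise. Alternatives were pseudocounts of 1 and 64, no filter or 60%, quantile normalization, median centring, no trend, array weights, a threshold of 0.1, averaging over probe sets, and each array left out.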

Additional observations from a re-analysis of the deposited data

How the results depend on the processing

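Between genotypes 0 collagen genes were called by limma in every alternative run, and the median stayed between -0.05 and 0.02 when 1 array was left out. As deposited, the fit without the block called 0 of all 27022 tested probe sets, Zmpste24 among them. Counts of 0 from it thus do not show that the collagen genes were unchanged. With the culture number as a replicate block the count was 0 and the median 0.01. Within number 2 the median was -0.13. For number 1 the count of 22 became 13 without the intensity trend and 19 to 24 when 1 array was left out, and the median lay between 0.00021 and 0.23, the lowest without Zmpste24-/- culture 1. The count over all numbers, 18, became 9 without the trend, 16 to 21 with 1 array left out, and 0 for number 2 against 3 with number 1 left out, which was chosen after seeing the data. The count for number 2, 10, became 0 without the trend, with 9 at an unadjusted p under 0.05 (25.7%, against 32.8% of all tested probe sets), and 4 to 13 with 1 array left out. The count for number 3, 7, became 4 with no filter, 4 after median centring and 0 without the trend, with 4 at an unadjusted p under 0.05 (11.4%, against 28.2%), and 0 to 10 with 1 array left out. The number 1 difference reversed for Col1a2 (0.16) and Loxl1 (0.12) after quantile normalization. Of the other single-gene checks of number 1, 458 stayed on their side of the threshold, 37 lost their call, 17 gained one and 9 uncalled ones moved by over 1 SD. All 593 single-gene checks between genotypes gave no call. Col15a1 and Col4a6 lay closest to the filter among the tested genes.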
